A study of Mus musculus with 22 samples.

Results

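The genes described here are the keratin and keratin-associated genes of the mouse, taken as all autosomal protein-coding genes of the GENCODE vM21 annotation (mm10) whose symbol starts with Krt. There were 113 such genes among 20807 autosomal protein-coding genes. Of these, 53 were keratins (Krt and a number), 57 were keratin-associated proteins (Krtap) and 3 were other genes that share the letters (Krtcap2, Krtcap3 and Krtdap). Members no more than 500 kb apart were joined, which gave 4 clusters with 105 genes and left 8 genes outside them. The cluster on chromosome 11 (chr11:99232761-100269871) held 50 members, 27 type I keratins and 23 Krtap genes. The cluster on chromosome 15 (chr15:101347444-102032027) held 26 keratins, the cluster on chromosome 16 (chr16:88610705-89571183) held 24 Krtap genes, and the cluster on chromosome 7 (chr7:142174535-142304594) held 5 genes of the Krtap5 family.

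5mC and 5hmC were measured in cerebral cortex, olfactory bulb and cerebellum of female C57BL/6 mice at 8 weeks of age, with no treatment or altered allele in any group, and the replicates of a tissue came from different mice. The 5mC level came from oxBS-seq, where 5hmC is oxidized before the bisulfite step and no longer appears as C, with 3 cortex, 2 olfactory bulb and 2 cerebellum libraries and 26327 bins of 100 kb. The 5hmC level came from TAB-seq, where a sugar shields 5hmC while 5mC is oxidized away, with 3 libraries for each tissue and 2641 bins of 1 Mb. A level is the deposited fraction between 0 and 1 and comes with no read count, so the depth behind the value of a bin is unknown and its error is given as the SD between libraries. The members overlapped 36 bins of 100 kb, 30 of them in the clusters, and 6 bins of 1 Mb held 5 or more members and 104 members in all. All of these bins passed the filter on bins listed at 0 or 1 in any library. Each whole tissue is a mixture of neurons and glia, and a bin of 100 kb or 1 Mb averages genes, spacers and any promoter in it. The members are taken as clusters without expression in brain, but the RNA-seq libraries were not analysed here, so this was not checked.

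Keratins are the intermediate filament proteins of epithelia. A type I keratin pairs with a type II keratin, and mice carry the type I genes in a cluster on chromosome 11 and the type II genes in a cluster on chromosome 15, together with Krt18, the type I partner of Krt8. Keratin-associated proteins are small, cysteine-rich or glycine- and tyrosine-rich proteins that cross-link keratin filaments in the hair shaft, and their genes lie in tandem arrays. 5mC is the common methylation mark of CpG sites, and TET enzymes oxidize it to 5hmC, which is abundant in neurons.

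The stretch upstream of the members is poor in CpG sites, as the 250 bases before the RefSeq transcription start show. Such a window was found for 90 of the 113 members in the RefSeq annotation of GRCm38.p6. The 5 below belong to bins at the low or high end of 5mC in their cluster: Krt24, Krt8 and Krt18 from the bins with the lowest level on chromosomes 11 and 15, and Krtap4-13 and Krtap22-2 from the bins with the highest level on chromosomes 11 and 16. They are written 5′ to 3′ on the strand of the gene, and capitals mark each CG and each TATAAA, the core of a TATA box.
Krt24 (chr11:99285263-99285512, minus strand): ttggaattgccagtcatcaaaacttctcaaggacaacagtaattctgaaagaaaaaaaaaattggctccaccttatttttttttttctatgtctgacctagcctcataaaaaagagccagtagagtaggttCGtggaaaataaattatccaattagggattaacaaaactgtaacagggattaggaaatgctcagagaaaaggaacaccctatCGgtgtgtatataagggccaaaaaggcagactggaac
Krtap4-13 (chr11:99809897-99810146, minus strand): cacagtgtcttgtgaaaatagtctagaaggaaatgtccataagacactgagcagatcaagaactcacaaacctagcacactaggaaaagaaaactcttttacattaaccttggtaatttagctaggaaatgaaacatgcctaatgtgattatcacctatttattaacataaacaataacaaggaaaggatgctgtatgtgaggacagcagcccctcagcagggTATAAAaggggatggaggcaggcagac
Krt8 (chr15:102004343-102004592, minus strand): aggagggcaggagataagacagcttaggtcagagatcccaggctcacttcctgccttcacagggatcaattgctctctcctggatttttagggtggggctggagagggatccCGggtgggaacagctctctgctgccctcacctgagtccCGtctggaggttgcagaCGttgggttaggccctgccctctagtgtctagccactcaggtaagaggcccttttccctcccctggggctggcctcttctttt
Krt18 (chr15:102027966-102028215, plus strand): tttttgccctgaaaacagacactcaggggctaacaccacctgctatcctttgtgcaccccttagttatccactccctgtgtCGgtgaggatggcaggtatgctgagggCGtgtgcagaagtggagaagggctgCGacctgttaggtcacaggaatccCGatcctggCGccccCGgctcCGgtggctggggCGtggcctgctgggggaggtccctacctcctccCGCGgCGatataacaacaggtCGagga
Krtap22-2 (chr16:89010760-89011009, minus strand): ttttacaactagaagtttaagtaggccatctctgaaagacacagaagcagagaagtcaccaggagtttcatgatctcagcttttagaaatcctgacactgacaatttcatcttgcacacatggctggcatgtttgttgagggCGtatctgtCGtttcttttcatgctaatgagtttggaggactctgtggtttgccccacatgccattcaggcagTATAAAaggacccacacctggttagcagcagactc
Krtap4-13 had no CG in its window, Krt24 and Krtap22-2 had 2, Krt8 had 3 and Krt18 had 12. In the GENCODE annotation Krt8, on the minus strand, reaches up to position 102004482, and Krt18 starts at 102028180. The windows of Krt8 and Krt18, set by the RefSeq start, therefore lie partly inside the genes as GENCODE places them. Over the 90 members the median was 3 CG per window, against 6 over 32851 RefSeq windows of the same length. The 36 keratins had a median of 3.5 and the 51 Krtap genes a median of 2. Among the Krtap genes 13 windows (25.5%) held no CG, against 7.87% of all windows, and every keratin window held at least 1. Windows with 10 or more CG were found for 3 members only (Krt7, Krt18 and Krtcap3), which is 3.33% of the members against 37.8% of all windows. TATAAA on either strand was present in 41 Krtap windows (80.4%) and 17 keratin windows (47.2%), against 12.4% of all windows. Within the last 50 bases before the start it was present in 66.7% of the Krtap and 41.7% of the keratin windows, against 3.50% of all windows. The capitals in Krtap4-13 and Krtap22-2 show this arrangement, and the windows of Krt24, Krt8 and Krt18 hold no TATAAA. The bins of 100 kb do not resolve these windows, so no level can be given for a promoter.

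Across the keratin cluster of chromosome 11, 5mC stood well above the flanking DNA in all tissues. The mean level over its 11 bins was 0.709, 0.710 and 0.681 in the 3 cortex libraries, 0.731 and 0.728 in olfactory bulb, and 0.756 and 0.746 in cerebellum. In the 10 bins of the flanking 500 kb on either side the level was 0.539, 0.552 and 0.512 in cortex, 0.558 and 0.551 in olfactory bulb, and 0.585 and 0.570 in cerebellum. No flank value reached the lowest cluster value. The excess of the cluster over its flank was 0.166 ± 0.0067 for cortex (SD, n = 3), 0.175 ± 0.0022 for olfactory bulb (n = 2) and 0.174 ± 0.0044 for cerebellum (n = 2). It was higher in 7 of 7 libraries (two-sided exact sign-flip test, p = 0.0156, the smallest p that 7 libraries allow). The test asks whether the difference recurs across libraries, not whether it is unusual among regions of the genome. This test and the others over libraries count each library as a unit, although the study's methods describe all 3 tissues as dissected from a mouse, so libraries of different tissues may share an animal. Which ones do is not given in the sources used here. With 3 mice in all, as many as there are replicate numbers, the smallest p would be 0.25.

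The type II keratin cluster of chromosome 15 showed the same order. Its 8 bins averaged 0.671, 0.689 and 0.653 in the cortex libraries, 0.705 and 0.702 in olfactory bulb, and 0.712 and 0.697 in cerebellum. The flank averaged 0.530 ± 0.0090 for cortex, 0.575 ± 0.0020 for olfactory bulb and 0.568 ± 0.0061 for cerebellum. The difference was 0.141 ± 0.0118, 0.129 ± 0.0041 and 0.137 ± 0.0047 in these tissues, and it was above 0 in 7 of 7 libraries (exact sign-flip test, p = 0.0156). Both keratin clusters lay above their flank on the lower and on the upper side in every library.

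The Krtap cluster of chromosome 16 had the highest 5mC of the 4 clusters. Its 8 bins averaged 0.748, 0.743 and 0.718 in cortex, 0.761 and 0.764 in olfactory bulb, and 0.812 and 0.802 in cerebellum, with no overlap between the tissues. The 2 bins inside this cluster that hold no member had levels of 0.805 and 0.782 as the mean of the tissues, near the top of or above the range of 0.713 to 0.792 in the bins with members. The excess over the flank was smaller than on chromosomes 11 and 15, at 0.0429 ± 0.0138 for cortex, 0.0756 ± 0.0030 for olfactory bulb and 0.0949 ± 0.0011 for cerebellum (7 of 7 libraries, exact sign-flip test, p = 0.0156). This excess differed by side. Against the lower side it was 0.0243, 0.0333 and 0.0232 in the order cortex, olfactory bulb and cerebellum, and against the upper side 0.0615, 0.118 and 0.167. On the upper side lies Tiam1 (chr16:89787111-90143769), which encodes an activator of the GTPase Rac. The bin of Tiam1 that starts at position 89900001 had 0.632, 0.671 and 0.611 in cortex, 0.578 and 0.593 in olfactory bulb, and 0.453 and 0.419 in cerebellum, so this bin was lowest in cerebellum, where the cluster was highest. The flank as a whole was at 0.693 in cortex and 0.712 in cerebellum, and the lower levels in cerebellum were in 2 of the 5 upper bins.

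The Krtap5 genes of chromosome 7, which encode cysteine-rich hair proteins, did not stand above their surroundings. The 3 bins averaged 0.662, 0.683 and 0.628 in cortex, 0.667 and 0.675 in olfactory bulb, and 0.677 and 0.650 in cerebellum. The flank averaged 0.659 ± 0.0110, 0.698 ± 0.0054 and 0.668 ± 0.0112 in these tissues. The cluster was above its flank in 3 of 7 libraries, with differences between -0.0346 and 0.0143 (exact sign-flip test, p = 0.188). Against the upper side alone it was lower in every library, with a mean difference of -0.0463. Against the lower side alone it was higher on average, by 0.0275, in 6 of 7 libraries, and against a wider flank by 0.0308.

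**Figure D1:**
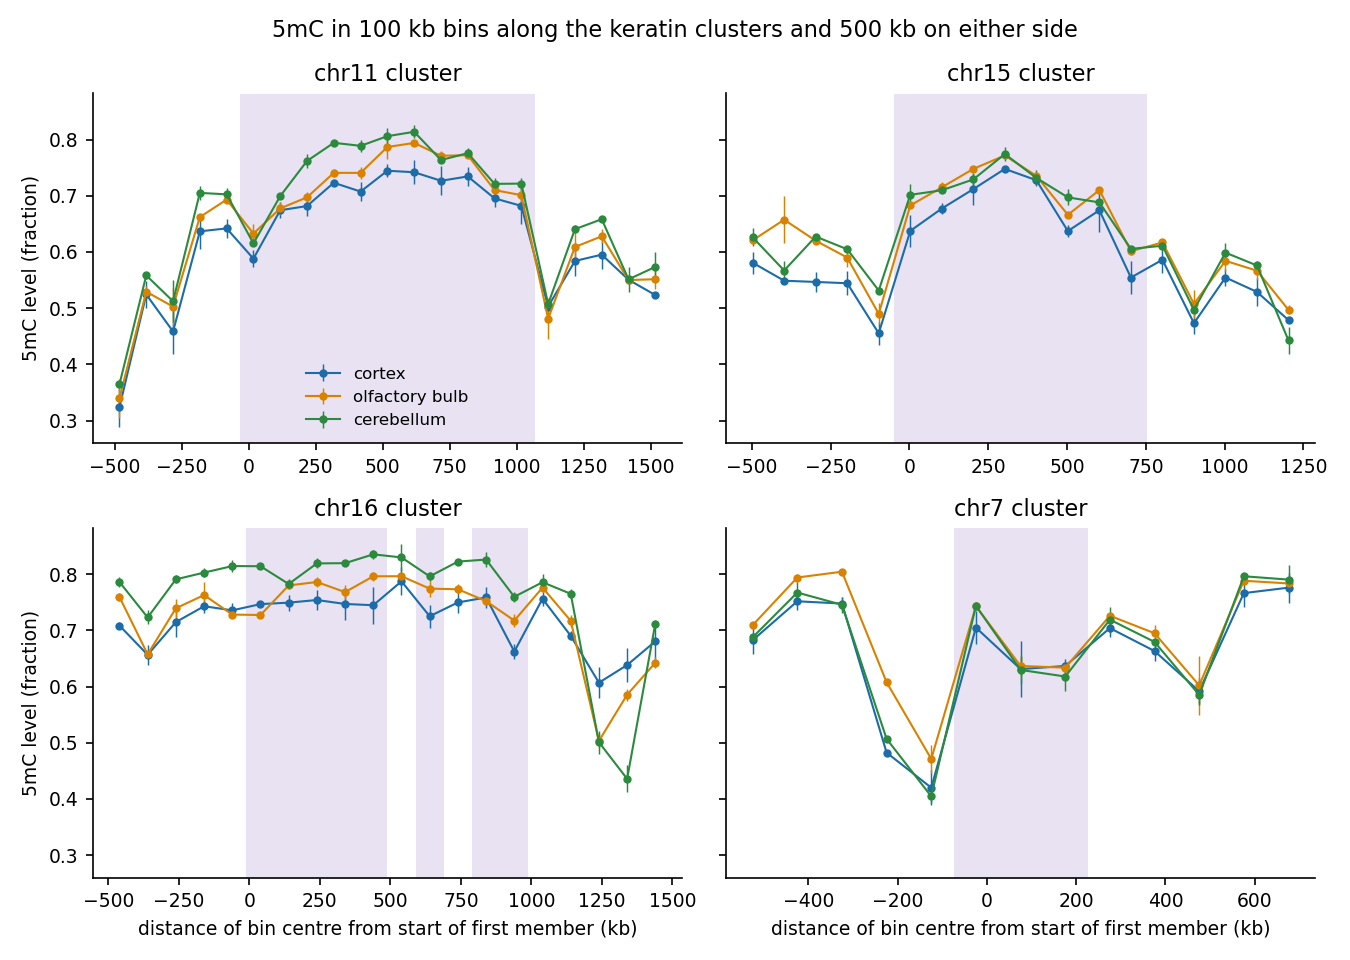
Mean 5mC level per bin of 100 kb (vertical axis, fraction) against the distance in kb of the bin's centre from the start of the first member (horizontal axis), for the 4 clusters and the flanking 500 kb on either side, with a line for each tissue, bars for the SD between libraries and shading over the bins that hold members. On chromosomes 11 and 15 most member bins lie above the flanks. The first on chromosome 11 and the last on chromosome 15 lie below the flank bin next to them. The second on chromosome 11 lies below the nearest lower flank bin in olfactory bulb and cerebellum. On chromosome 16 the plateau continues into the lower flank and falls at Tiam1, and on chromosome 7 the member bins lie among the values of the flank.

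**Figure D2:**
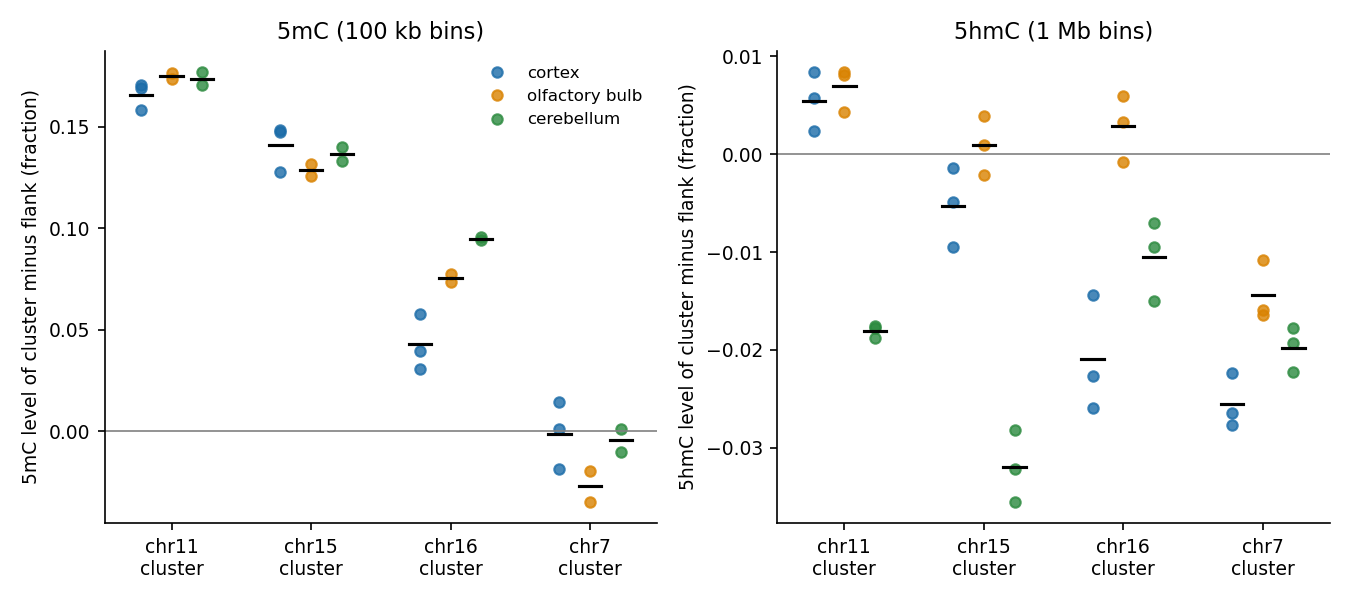
Level of each cluster minus that of its flank (fraction, vertical axis) for 5mC on the left and 5hmC on the right, a point for each of the 7 oxBS-seq and 9 TAB-seq libraries by tissue, with a line at the mean of the tissue. For 5mC all points lie above 0 on chromosomes 11, 15 and 16, and 3 of 7 do on chromosome 7, and for 5hmC all 9 points lie below 0 on chromosome 7.

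All 4 clusters held fewer CpG sites per kb than their flanks, also that of chromosome 7, which had no excess of 5mC. The median was 10.4 CpG sites per kb in the chromosome 11 cluster against 15.0 in its flank, 11.1 against 15.2 on chromosome 15, 6.51 against 8.72 on chromosome 16 and 7.11 against 9.78 on chromosome 7. Genes covered a median of 19.0% of a bin in the chromosome 11 cluster and 78.1% in its flank, and 2.89% against 51.6% on chromosome 16. The comparison was therefore repeated with each level taken relative to the median of the autosomal bins with as many CpG sites per kb in the same library, a choice made after the data had been seen. The excess of the chromosome 11 cluster then shrank to 0.0740 and that of the chromosome 15 cluster to 0.0538, each above 0 in 7 of 7 libraries (exact sign-flip test, p = 0.0156). On chromosome 16 no excess was left, with a difference of -0.000788 and 4 of 7 libraries above 0 (exact sign-flip test, p = 0.891). On chromosome 7 the difference was -0.0310 on average, with 0 of 7 libraries above 0 (exact sign-flip test, p = 0.0156). On this scale the chromosome 11 cluster stood 0.0340 and the chromosome 16 cluster 0.0281 above bins of like density, in 7 of 7 libraries each. The chromosome 15 cluster stood 0.0177 above them, in 5 of 7 libraries, and the chromosome 7 cluster was at -0.0593, below them in every library.

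Set against the whole genome, the member bins were not unusual in 5mC. Their median over the 36 bins was 0.727 as the mean of the tissues, against 0.725 over 24011 autosomal bins, and 19 of 36 lay above the autosomal median. They held more CpG sites, with a median of 10.3 per kb against 7.79. Across the 36 bins the level fell with CpG density (Pearson's r = -0.79, Spearman's rho = -0.77), as it did across all autosomal bins (r = -0.68, rho = -0.67). These are descriptions across bins that share libraries and neighbours. Among cluster bins with 4 to 8 CpG sites per kb, 8 of 11 lay above the median of autosomal bins of that density, with medians of 0.765 and 0.757. With 8 to 12 sites it was 11 of 14, with medians of 0.722 and 0.695, and with 12 to 16 sites 3 of 5, with medians of 0.684 and 0.631. The bins of Krtap5-3, Krtap5-5 and Krtap5-1 (0.632) and of Krtap5-4 (0.629) had the lowest levels among the cluster bins with 4 to 8 and with 8 to 12 sites.

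**Figure D3:**
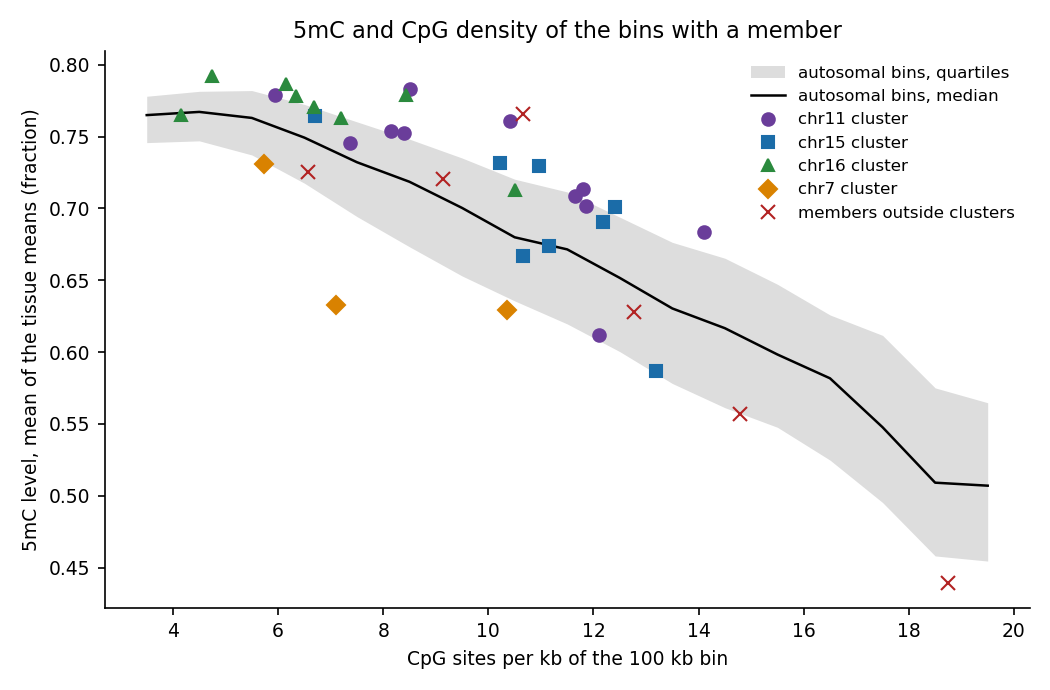
5mC level per bin of 100 kb as the mean of the tissues (vertical axis, fraction) against CpG sites per kb (horizontal axis) for the member bins, by cluster, over the median and quartiles of the autosomal bins of each density. The levels fall with density, from 0.792 in the Krtap22-2 bin to 0.440 in the Krtcap2 bin, and bins of the chromosome 7 cluster lie under the autosomal median.

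Within the chromosome 11 cluster the keratin genes at its lower end had the least 5mC and the Krtap genes in its middle the most. The bin of Krt222 and Krt24, 2 type I keratin genes at the edge, had 0.594, 0.599 and 0.571 in cortex, 0.621 and 0.644 in olfactory bulb, and 0.614 and 0.616 in cerebellum. The bin of Krtap4-13, Krtap4-16 and Krtap9-1 had 0.757, 0.752 and 0.717 in cortex, 0.794 in both olfactory bulb libraries, and 0.822 and 0.806 in cerebellum. These bins stood at the 13.2 and 89.7 percentiles of autosomal bins, and no library of the former reached any library of the latter. The bin of the inner root sheath keratins Krt25 to Krt28 and of Krt10, the suprabasal partner of Krt1, had 0.684 as the mean of the tissues. The bin of the hair keratins Krt33a, Krt33b, Krt34, Krt31, Krt32 and Krt35 had 0.761, and that of Krt14, Krt16, Krt17 and Krt42 had 0.702.

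On chromosome 15 the lowest level was at the other end of the keratin range, in the bin of Krt8 and Krt18, the keratin pair of simple epithelia. It had 0.558, 0.581 and 0.524 in cortex, 0.606 and 0.596 in olfactory bulb, and 0.609 and 0.602 in cerebellum, at the 9.18 percentile of autosomal bins. Krt18 is the gene of the sequences above with 12 CG in its window. The highest level was in the bin of Krt6b and Krt6a, which are induced in wounded epidermis, with 0.749, 0.748 and 0.746 in cortex, 0.770 and 0.774 in olfactory bulb, and 0.784 and 0.765 in cerebellum. The bins of Krt5, the basal keratin, and of Krt1 and Krt2, suprabasal keratins, lay between these at 0.732 and 0.667. On chromosome 16 the bin of Krtap22-2, Krtap6-1, Krtap6-5 and Krtap6-3 was highest at 0.792 and the bin of Krtap7-1 and Krtap11-1 lowest at 0.713. On chromosome 7 the bin of Krtap5-2 had 0.731.

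Sorted by role, the Krtap genes had the highest median, at 0.763 over 19 bins with a range of 0.629 to 0.792. Wound keratins (Krt6a, Krt6b, Krt16 and Krt17) had a median of 0.733 over 2 bins and hair keratins 0.730 over 5 bins. Basal keratins had 0.709 over 3 bins, simple epithelial keratins 0.701 over 5 bins, mucosal keratins 0.691 over 3 bins, and suprabasal and inner root sheath keratins 0.684 over 3 bins each. The corneal keratin Krt12 shared a bin at 0.714 with Krt20 and Krt23. These classes share bins, because a bin of 100 kb holds up to 9 members, so their levels are not separate measurements. The levels by role, here and below, were not taken relative to CpG density, with which 5mC fell across bins. The 10 other intermediate filament genes, which are used in brain, nerve, muscle and mesenchyme, had a median of 0.608 over 11 bins. Among them Nes, of neural stem cells, was at 0.367, Gfap, of astrocytes, at 0.580, Nefl, of neurons, at 0.611, and Vim at 0.611. The 55 other genes of the cornified epidermis had a median of 0.721 over 26 bins, from 0.497 for Jup, the junction protein plakoglobin, to 0.813 for Flg, the epidermal filament aggregator filaggrin.

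Between tissues, part of the member bins rose in 5mC, at about the rate of all bins or below it. The changes below are on the scale log2(level/(1 − level)), tested with limma over all 25664 bins with Benjamini-Hochberg adjustment, and counted at an adjusted p under 0.05. All bins tested, here and for 5hmC below, include chromosome X, while the members are autosomal. From cortex to olfactory bulb 13 of 36 member bins (36.1%) rose, against 37.6% of all bins tested, of which 39.7% changed in either direction. From cortex to cerebellum 25 of 36 (69.4%) rose, against 71.9% of all bins and 76.4% changed in either direction. From olfactory bulb to cerebellum 9 of 36 (25%) rose, against 35.3% of all bins and 43% changed in either direction. No member bin fell in any of the 3 comparisons, at an adjusted p or at an unadjusted p under 0.05, against 2.18%, 4.44% and 7.69% of all bins. The median change was 0.25 over the member bins and 0.22 over all bins from cortex to olfactory bulb, 0.33 and 0.43 from cortex to cerebellum, and 0.14 and 0.19 from olfactory bulb to cerebellum. The shares of members that rose were thus near or below those of all bins.

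Most of this rise was shared by the whole genome. With the median of each library subtracted, 1 member bin rose and 2 fell from cortex to olfactory bulb, 6 rose and 10 fell from cortex to cerebellum, and 5 rose and 7 fell from olfactory bulb to cerebellum. The shares of all bins under this setting are not given here, so these counts are not read as a trait of the members. Single libraries also set the counts. Without olfactory bulb replicate 1 or replicate 2 the rises from cortex to olfactory bulb were 3, and without cortex replicate 3, which had the lowest 5mC of the cortex libraries in every cluster, they were 7. Without cerebellum replicate 1 there were 15 rises from cortex to cerebellum. The rises from olfactory bulb to cerebellum came to 4 without either olfactory bulb library or without cerebellum replicate 1.

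The counts of bins that rose differed between the clusters. Of all bins tested, 71.9% rose from cortex to cerebellum, 37.6% from cortex to olfactory bulb and 35.3% from olfactory bulb to cerebellum. From cortex to cerebellum 8 of 8 bins rose on chromosome 16 and 8 of 11 on chromosome 11, against 3 of 8 on chromosome 15 and 1 of 3 on chromosome 7. From cortex to olfactory bulb it was 3 of 8, 4 of 11, 2 of 8 and 0 of 3 in the same order, and from olfactory bulb to cerebellum 6 of 8, 3 of 11, 0 of 8 and 0 of 3. These shares were not tested against each other. By role, 17 of 19 bins with Krtap genes rose from cortex to cerebellum, 8 of 19 from cortex to olfactory bulb and 8 of 19 from olfactory bulb to cerebellum. For the hair keratins the counts were 2, 1 and 1 of 5 bins. The other intermediate filament genes rose in 9, 4 and 2 of 11 bins, and the genes of the cornified epidermis in 16, 9 and 3 of 26 bins. The latter had 1 fall from cortex to cerebellum, against 4.44% of all bins tested.

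**Figure D4:**
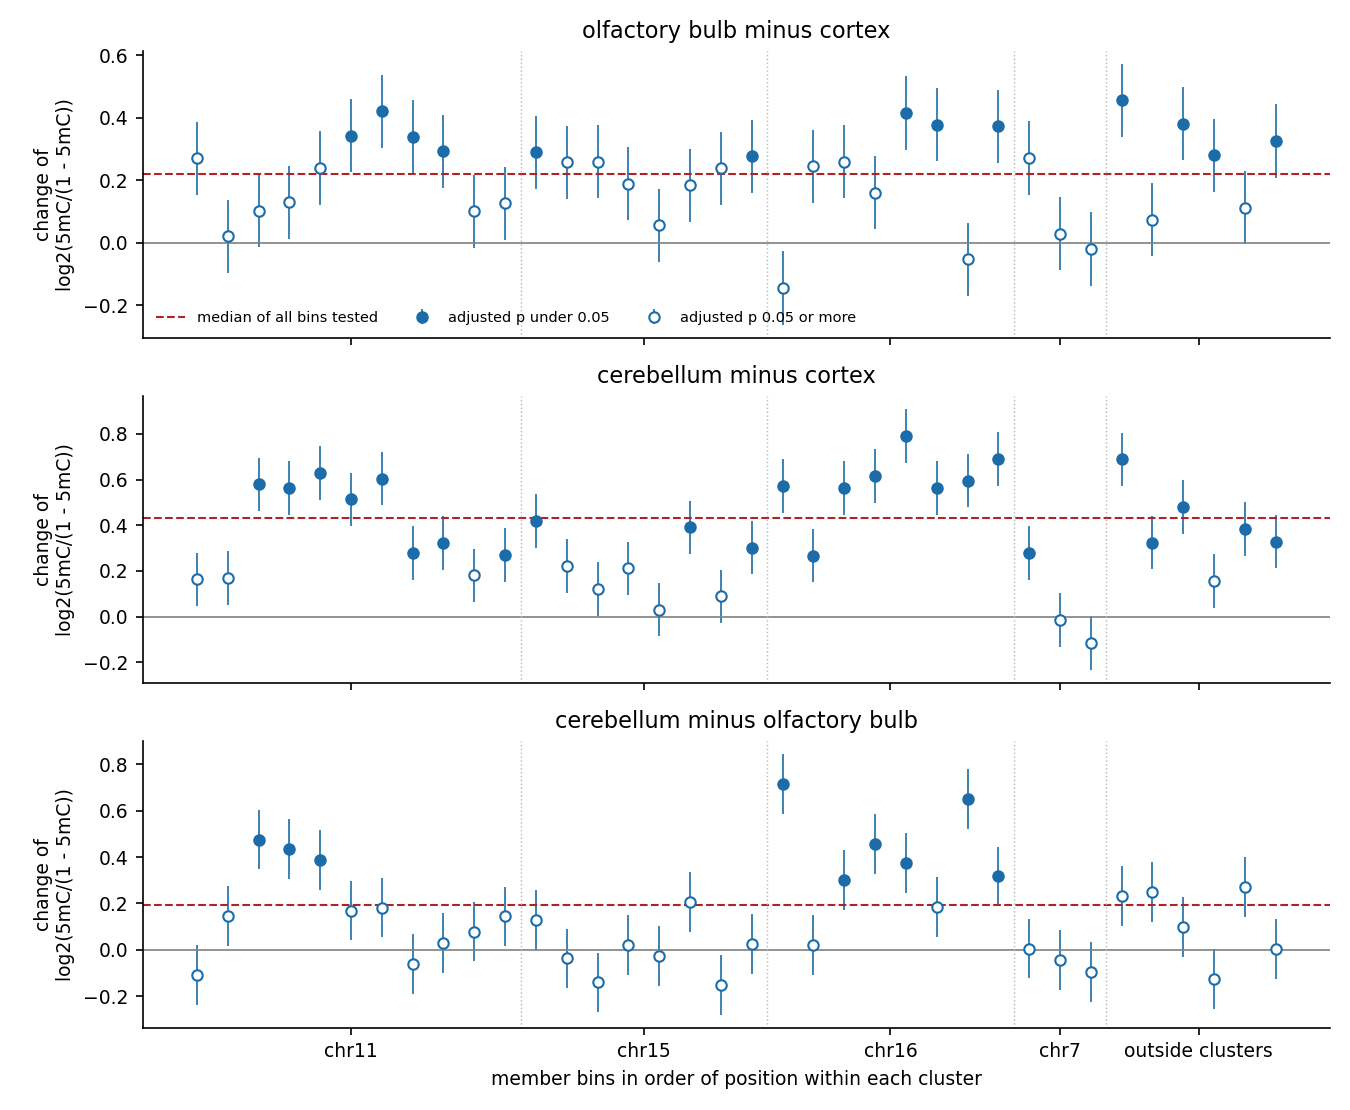
Change in 5mC per member bin of 100 kb on the log2(level/(1 − level)) scale (vertical axis) for the 3 pairs of tissues, in order of position within each cluster with the bins outside the clusters at the right end. Bars are the SE, filled points have an adjusted p under 0.05, and the dashed line is the median of all bins tested. From cortex to cerebellum all 8 bins of chromosome 16 lie above 0 and pass the test, as did 71.9% of all bins tested, and no member bin below 0 passes in any pair.

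On the fraction scale the largest rise in level from cortex to cerebellum, by 0.0975, was in the bin of Krtap7-1 and Krtap11-1, at the upper end of the chromosome 16 cluster. The bin of Krtap28-10 and Krtap28-13 was close to it at 0.0964. The bin of Krtap7-1 and Krtap11-1 had 0.677, 0.650 and 0.660 in cortex, 0.726 and 0.709 in olfactory bulb, and 0.766 and 0.754 in cerebellum, with no overlap between tissues. The change from cortex to cerebellum on the log2 ratio scale was 0.69 ± 0.12 (SE, limma adjusted p = 3.37e-08). On that scale the Krtap22-2 bin rose more, by 0.79 ± 0.12 (SE, limma adjusted p = 3.07e-10). The bin of Krtap24-1, Krtap26-1 and Krtap27-1, at the lower end of the cluster, had the largest rise from olfactory bulb to cerebellum. It had 0.742, 0.748 and 0.751 in cortex, 0.729 and 0.726 in olfactory bulb, and 0.814 and 0.815 in cerebellum. The change from olfactory bulb was 0.72 ± 0.13 (SE, limma adjusted p = 5.09e-07), while that from cortex to olfactory bulb was -0.14 and did not pass. In the chromosome 11 cluster the bins with a rise from olfactory bulb to cerebellum were 3 neighbours that hold Krt12, Krt20 and Krt23, then Krt39, Krt40 and the first Krtap genes, and then Krtap2-4 and part of the Krtap4 family. The bin of Krt12, Krt20 and Krt23 had 0.691, 0.693 and 0.661 in cortex, 0.704 and 0.690 in olfactory bulb, and 0.770 and 0.754 in cerebellum. These 3 bins were chosen after their values were seen.

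Taken as whole clusters, the tissues could be compared only with few libraries. The mean 5mC of the chromosome 11 cluster rose by 0.0295 from cortex to olfactory bulb and by 0.0511 from cortex to cerebellum (two-sided exact permutation tests, p = 0.1 each, the smallest that 3 against 2 libraries allow). On chromosome 16 the difference between cerebellum and cortex was 0.0706 (exact permutation test, p = 0.1). On chromosome 15 the differences from cortex were 0.0328 for olfactory bulb and 0.0337 for cerebellum (exact permutation tests, p = 0.2 each). On chromosome 7 they were 0.0136 and 0.0062 with overlapping libraries. With the mean of each library over all bins subtracted, the chromosome 11 differences became -0.000596 and -0.00322 and that of chromosome 15 between cerebellum and cortex became -0.0206. The chromosome 16 difference between cerebellum and cortex kept its sign, and its excess over the flank was 0.0520 larger in cerebellum than in cortex (exact permutation test, p = 0.1). Against the lower side of the flank alone that last difference was -0.00116.

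5hmC of the members was read in 6 bins of 1 Mb, and it was lower in cerebellum in all of them. The bin of chromosome 11 from position 99000001, with 35 members in 8 of its 10 parts of 100 kb, had 5hmC of 0.160, 0.168 and 0.153 in cortex, 0.135, 0.142 and 0.135 in olfactory bulb, and 0.073, 0.074 and 0.078 in cerebellum. The next bin, from position 100000001, with 15 members such as Krt14 and Krt19, had 0.181, 0.193 and 0.171 in cortex, 0.165, 0.173 and 0.163 in olfactory bulb, and 0.124, 0.125 and 0.133 in cerebellum. Members took up 3 of its 10 parts, so most of its level comes from other genes. In both bins every cerebellum library was under every library of the other tissues.

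The chromosome 15 bin from position 101000001, with 25 type II keratins, had 0.174, 0.181 and 0.166 in cortex, 0.153, 0.165 and 0.156 in olfactory bulb, and 0.106, 0.105 and 0.111 in cerebellum. The chromosome 16 bin from position 88000001, with 14 Krtap genes, had 0.156, 0.166 and 0.154 in cortex, 0.141, 0.150 and 0.145 in olfactory bulb, and 0.063, 0.063 and 0.067 in cerebellum, the lowest cerebellum values of the 6 bins. Its neighbour from position 89000001, with 10 Krtap genes and also most of Tiam1, had 0.182, 0.190 and 0.180 in cortex, 0.192, 0.196 and 0.180 in olfactory bulb, and 0.145, 0.128 and 0.144 in cerebellum. The lower and the upper bin of the chromosome 16 cluster thus differed more in cerebellum than in cortex. The chromosome 7 bin from position 142000001, with the 5 Krtap5 genes, had 0.144, 0.152 and 0.135 in cortex, 0.108, 0.120 and 0.110 in olfactory bulb, and 0.0961, 0.0966 and 0.1001 in cerebellum. Members took up 7 of the 10 parts of 100 kb in the chromosome 15 bin, 4 in each chromosome 16 bin and 3 in the chromosome 7 bin. Most of the level of the chromosome 16 and chromosome 7 bins therefore comes from parts without a member.

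From cortex to cerebellum 5hmC fell in 6 of 6 bins, against 97.6% of the 2581 bins tested and 98.1% changed in either direction (limma, adjusted p under 0.05). From olfactory bulb to cerebellum it also fell in 6 of 6, against 91.8% of all bins and 93% changed in either direction. From cortex to olfactory bulb it fell in 3 of 6, against 67.7% of all bins and 70.9% changed in either direction, and the bins that passed were the lower chromosome 11 bin, the chromosome 15 bin and the chromosome 7 bin. With libraries of the same number as blocks, the count was 5. Deviations of same-numbered cortex and olfactory bulb libraries had r of 0.126, 0.344 and 0.250. Libraries of different number reached 0.299 across tissues, and same-numbered pairs with cerebellum ran from -0.229 to 0.0743. No member bin rose in any comparison, at an adjusted p or at an unadjusted p under 0.05, and the shares of all bins that rose were 3.25% from cortex to olfactory bulb, 0.426% from cortex to cerebellum and 1.2% from olfactory bulb to cerebellum. The log2 ratio from cortex to cerebellum changed by -1.45 and -1.23 in the lower bins of chromosomes 16 and 11, by -0.81 on chromosome 15, and by between -0.63 and -0.48 in the other bins, each with an SE of 0.073. The median change was -0.72 over the 6 bins and -0.97 over all bins. With library medians subtracted, 4 of the 6 rose and 2 fell from cortex to cerebellum and from olfactory bulb to cerebellum, and 4 rose and 1 fell from cortex to olfactory bulb. Shares of all bins with medians subtracted are not given here, so these counts are not read as a trait of the members.

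**Figure D5:**
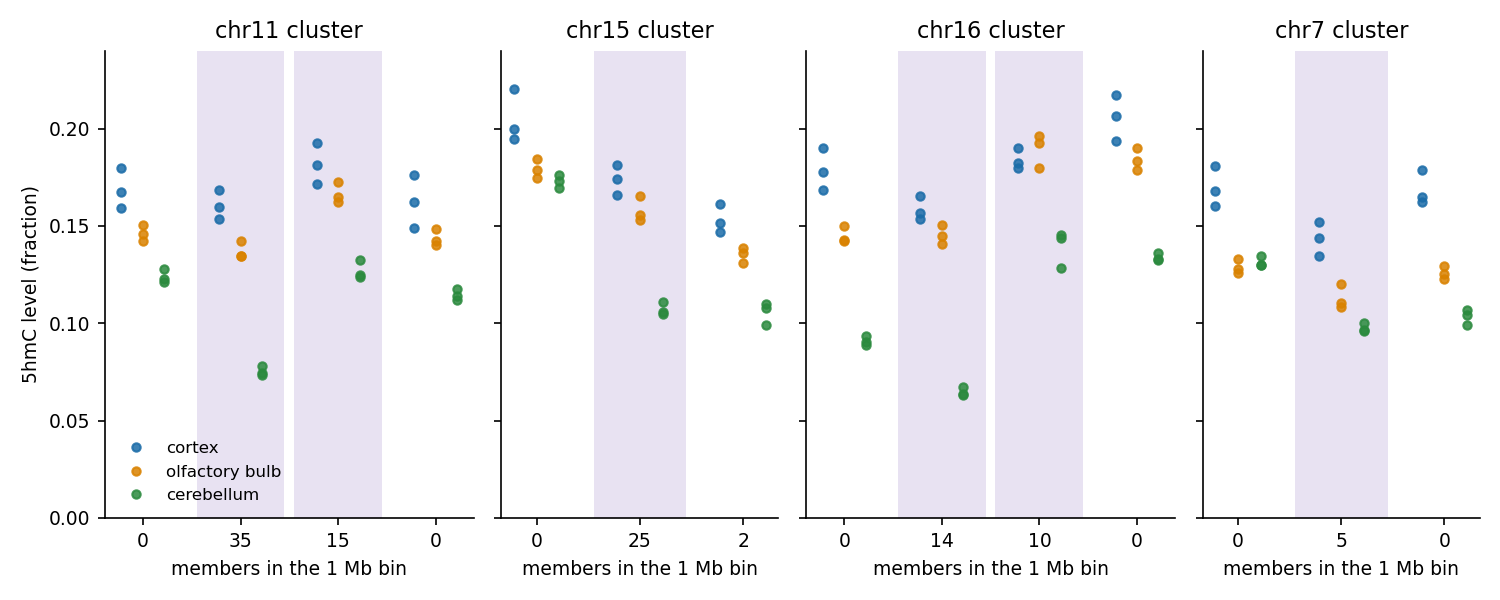
5hmC level (fraction, vertical axis from 0 to 0.24) in the 6 bins of 1 Mb with 5 or more members (shaded) and the bins on either side, with the number of members in each bin on the horizontal axis and a point for each TAB-seq library by tissue. The cerebellum libraries lie lowest in every shaded bin, at 0.063 to 0.067 in the lower chromosome 16 bin and at 0.128 to 0.145 in the upper one.

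Cerebellum kept 40.7% of the cortex 5hmC level in the lower chromosome 16 bin and 46.9% in the lower chromosome 11 bin, below the autosomal median of 56.1%. It kept 61.7% in the chromosome 15 bin, 68.0% in the chromosome 7 bin, 69.9% in the upper chromosome 11 bin and 75.6% in the upper chromosome 16 bin, all above that median. The 6 values spanned the 18.9 to the 85.8 percentile of 2413 autosomal bins. 5hmC made up 18.9% of the summed 5mC and 5hmC in the lower chromosome 11 bin for cortex, 16.01% for olfactory bulb and 9.18% for cerebellum, and 17.8%, 16.2% and 7.50% in the lower chromosome 16 bin. The autosomal medians of this share were 20.9%, 18.1% and 11.6%, above both bins in every tissue. The shares were 23.2%, 21.3% and 16.6% in the upper chromosome 11 bin and 21.5%, 19.0% and 13.6% in the chromosome 15 bin, above these medians. They were 20.5%, 20.9% and 15.9% in the upper chromosome 16 bin and 18.1%, 14.4% and 12.9% in the chromosome 7 bin, on both sides of them. The sum of both marks in the lower chromosome 16 bin was 0.889 for cortex, 0.896 for olfactory bulb and 0.860 for cerebellum, and in the lower chromosome 11 bin 0.847, 0.857 and 0.820. The summed levels come from different libraries for each mark, and no test was made on them.

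Against the adjacent bins of 1 Mb, 5hmC of the clusters differed in sign between clusters and tissues. On chromosome 11 the cluster minus its neighbours was 0.00548 ± 0.0030 in cortex and 0.00695 ± 0.0023 in olfactory bulb, above 0 in 3 of 3 libraries each, and -0.0181 ± 0.0006 in cerebellum, below 0 in 3 of 3 libraries (SD, n = 3). Over the 9 libraries the mean difference was -0.00187 (exact sign-flip test, p = 0.660), and it turned positive, at most 0.000239, when any 1 cerebellum library was left out. The bin with 35 members was on average below both neighbours in every tissue, with 0.161 against 0.169 and 0.163 in cortex. In olfactory bulb it had 0.137 against 0.146 and 0.144. The bin with 15 members was on average above both neighbours in every tissue. On chromosome 15 the difference was -0.0053, 0.0009 and -0.0320 in cortex, olfactory bulb and cerebellum, with a mean of -0.0121 (exact sign-flip test, p = 0.0430). On chromosome 16 it was -0.0210, 0.0028 and -0.0105, with a mean of -0.00955 (exact sign-flip test, p = 0.0352). Leaving out a library raised p above the threshold in 7 of 9 cases on chromosome 15 and 6 of 9 on chromosome 16, and the sign on these chromosomes depended on the side of the flank. On chromosome 7 the cluster bin was below its neighbours in 9 of 9 libraries, with differences of -0.0255 ± 0.0028 for cortex, -0.0144 ± 0.0031 for olfactory bulb and -0.0198 ± 0.0023 for cerebellum (exact sign-flip test, p = 0.0039, the smallest that 9 libraries allow, with the limit on shared mice given above). Members took up 3 of the 10 parts of 100 kb in that chromosome 7 bin, so its difference describes mostly sequence without members. The upper neighbour on chromosome 15 itself holds Krt18 and part of Krt8.

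Outside the clusters were 8 members. The bins of the hair genes Krtap12-1, Krtap10-4 and Krtap10-10 on chromosome 10 lay above their flank in 7 of 7 libraries. The excess was 0.123 ± 0.0155 for cortex, 0.137 ± 0.0115 for olfactory bulb and 0.161 ± 0.0029 for cerebellum. These bins had a median of 8.61 CpG sites per kb against 13.3 in the flank, and no comparison at like density was made. Protein-coding genes covered 100% and 89.4% of them, mostly sequence outside these short members. Krtap28-10 and Krtap28-13 on chromosome 1 had 5mC of 0.678, 0.670 and 0.652 in cortex, 0.727 and 0.739 in olfactory bulb, and 0.774 and 0.752 in cerebellum. Their bin had the largest rise of all member bins from cortex to olfactory bulb, 0.46 ± 0.12 (SE, limma adjusted p = 0.00103). Krtdap, which encodes a secreted protein of differentiating keratinocytes, was above its flank in 7 of 7 libraries, with an excess of 0.0136 for cortex, 0.0270 for olfactory bulb and 0.0223 for cerebellum. Krtcap2, a subunit of the enzyme that attaches sugars to new proteins in every cell, had the lowest level of all member bins, with 0.431, 0.413 and 0.407 in cortex, 0.433 and 0.426 in olfactory bulb, and 0.471 and 0.474 in cerebellum. It was below its flank in 7 of 7 libraries, with differences of -0.136 for cortex, -0.148 for olfactory bulb and -0.146 for cerebellum, and its bin had 18.7 CpG sites per kb and stood at the 0.779 percentile of autosomal bins. Krtcap3, which encodes a membrane protein, was also below its flank in 7 of 7 libraries, with differences of -0.0979 for cortex, -0.0644 for olfactory bulb and -0.0805 for cerebellum. No test against the flank was made for these single genes.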

How the data were processed

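5mC (oxBS-seq, 7 libraries) and 5hmC (TAB-seq, 9 libraries) were analysed, 16 of 22 samples, and the 6 RNA-seq samples were not analysed here. The authors mapped paired reads uniquely to mm10 with Bismark, and the deposited value of a bin is a fraction between 0 and 1. The Bismark version and how sites were combined within a bin are not given in the sources used here, and the tables used hold no coverage, so precision was judged only from the spread between libraries. Unique mapping can leave out reads from near-identical Krtap copies, and how many was not tested.

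Groups came from the sample titles. Genes were taken from GENCODE vM21, CpG sites from the GRCm38 sequence, and promoter windows from RefSeq for GRCm38.p6. A bin was dropped from an assay when a library listed it at 0 or 1, which left 25664 bins of 5mC and 2581 of 5hmC. limma 3.58.1 (R 4.3.3) was fitted once per assay over the 3 tissues, on the log2 ratio of a level to its complement, with Benjamini-Hochberg adjustment over all bins. limma shared the spread across bins almost fully for 5mC and fully for 5hmC. The SE was therefore nearly the same in every 5mC bin and the same in every 5hmC bin, and a shift of a whole library enters every bin. Clusters (5 or more members joined across gaps of up to 500 kb) were compared with the flanking 500 kb within each library by two-sided exact sign-flip tests, and tissues by exact permutation tests, with smallest p of 0.1 for 3 libraries against 2 or 3 and 0.333 for 2 against 2. For 5hmC the flank was the adjacent bin of 1 Mb on either side. The scripts were tested on simulated data. Python 3.11.15, numpy 2.4.6, pandas 2.3.3, scipy 1.17.1 and matplotlib 3.10.9 were used for the rest.

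The members, the gene lists and the rule for named bins were chosen with earlier results of these data known. The bins named are the lowest and the highest in 5mC of each cluster, the largest rise and fall per pair of tissues among those that passed without overlap of libraries, every bin of members outside the clusters, and every bin of 1 Mb with 5 or more members. Krt3 and Krt85 were not found in the annotation and Krt74 is not protein-coding there, so these were left out of the lists by role. Replicates within a tissue correlated across bins with r of 0.947 to 0.982 for 5mC and 0.994 to 0.998 for 5hmC. Because the replicates are few, p-values measure the spread between these samples only, and those of limma rest on a spread pooled over all bins. Libraries with the same replicate number were checked for shared deviations from their tissue means: r was between -0.0906 and 0.0158 for 5mC, and between -0.229 and 0.344 for 5hmC, where the 3 pairs over 0.1 were those of olfactory bulb and cortex. For 5hmC libraries of different number r was between -0.287 and 0.299. The olfactory bulb and cerebellum oxBS-seq libraries carry other numbers in their library names than in the labels. Alternatives were another scale, library medians or means subtracted, all bins kept, limma's trend and robust options, autosomes only, replicate blocks, leaving out each library, the median over bins, a wider flank, bins wholly inside a cluster, weights by CpG sites, a gap of 200 kb and, added after seeing the data, each side of the flank, only the bin of 1 Mb with most members, and levels relative to bins of like CpG density.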

Additional observations from a re-analysis of the deposited data

Results flagged for a closer look

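In the bin of Krtap28-10 and Krtap28-13 on chromosome 1, 5mC was on different sides of its flank in different tissues. The difference from the flank was -0.00735 in cortex, where all 3 libraries were below, 0.0118 in olfactory bulb, where both were above, and 0.0584 in cerebellum, where both were above. This difference between tissues was not tested.

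In the keratin cluster of chromosome 11, 5hmC was above the adjacent bins in cortex (0.00548) and olfactory bulb (0.00695), in 3 of 3 libraries each, and below them in cerebellum (-0.0181), in 3 of 3 libraries. The difference of this contrast was -0.0235 between cerebellum and cortex and -0.0250 between cerebellum and olfactory bulb (two-sided exact permutation tests, p = 0.1 each, the smallest that 3 against 3 libraries allow). The opposite signs hold only for the mean over the cluster's bins. Its bin with 35 members was on average below both neighbours in every tissue, and its bin with 15 members was above both.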

How the results depend on the processing

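The excess of 5mC over the flank on chromosomes 11 and 15 kept its sign and its side of the threshold under every alternative tried, with 0.170 to 0.173 and 0.134 to 0.138 when 1 library was left out. On chromosome 16 it held (0.0623 to 0.0731 with 1 library left out) except for levels relative to bins of like CpG density, where it was -0.000788. The chromosome 7 cluster, not separable from its flank over all its bins, was at -0.0404 with only bins wholly inside it, -0.106 on the log2 ratio scale, -0.0601 with medians over bins, -0.0463 against the upper side and -0.0310 relative to bins of like density, all past the threshold, and at 0.0275 against the lower side and 0.0308 against a wider flank. Counts of member bins that rose in 5mC were 13, 25 and 9 for olfactory bulb and cerebellum against cortex and for cerebellum against olfactory bulb, and with library medians subtracted 1, 6 and 5 rose and 2, 10 and 7 fell. From cortex to olfactory bulb 4 rose and 1 fell with all bins kept and levels limited away from 0 and 1, 7 rose with the replicate block by the numbers of the labels and 20 by the numbers of the library names. Leaving out 1 library gave 3 to 16, 15 to 25 and 4 to 11. Deviations of same-numbered 5mC libraries correlated little, which cannot tell whether they share a mouse, because 2 libraries of a tissue have opposite deviations. For 5hmC, 3 bins fell from cortex to olfactory bulb and 5 on the fraction scale, with trend and robust options, with autosomes only and with the replicate block, and 2 to 5 with 1 library left out. With medians subtracted 4 rose and 1 fell there, and 4 rose and 2 fell for both comparisons with cerebellum. The cause was not tested. Shares of all bins with library medians subtracted are not given here, so these counts describe the member bins only. Of the 24 tissue differences of cluster means, 13 reversed with the library mean subtracted. For 5mC these became -0.000596, -0.00322 and -0.00262 on chromosome 11, -0.0206 (cerebellum minus cortex) and -0.0233 (cerebellum minus olfactory bulb) on chromosome 15, -0.00341 (olfactory bulb minus cortex) on chromosome 16, and -0.0166 and -0.0481 against cortex on chromosome 7. For 5hmC these became 0.00277 and 0.00165 against cortex on chromosome 15, 0.0146 (olfactory bulb minus cortex) on chromosome 16, and 0.0223 and 0.0345 for cerebellum against cortex and olfactory bulb on chromosome 7. With the replicate block the chromosome 7 5mC differences from cortex were -0.00116 for olfactory bulb and -0.00850 for cerebellum. The block also changed the counts of bins that passed, as given above. With medians over bins the mean differences were -0.00682 (chromosome 15, cerebellum minus olfactory bulb), and -0.00931 and -0.0224 against cortex on chromosome 7, and differences of the excess over the flank were 0.0182 (chromosome 11) and -0.00326 (chromosome 15) for cerebellum minus olfactory bulb, and -0.00617 and -0.00663 for cerebellum minus cortex and minus olfactory bulb on chromosome 16. With a wider flank the latter differences were 0.0165 and -0.00932 for cerebellum minus olfactory bulb on chromosomes 11 and 15. Against the lower side the differences of the 5mC excess were -0.000385 on chromosome 11 and 0.000723 on chromosome 7 (cerebellum minus cortex), and -0.00116 and -0.0101 for cerebellum against cortex and olfactory bulb on chromosome 16. Against the upper side they were 0.00263 and 0.0129 against cortex on chromosome 15, and -0.00245 (cerebellum minus olfactory bulb) on chromosome 7. Leaving out 1 library gave -0.00429 to 0.00198 for the chromosome 11 excess and -0.00680 to 0.00858 for the chromosome 15 mean, both cerebellum minus olfactory bulb, and on chromosome 7 gave -0.00116 to 0.0263, -0.00850 to 0.0198 and -0.0209 to 0.00619 for the 3 mean differences and -0.0123 to 0.00423 for the excess, cerebellum minus cortex. 5hmC minus flank on chromosome 11 was 0.00114 against the upper side and -0.0190 with only the bin with most members (past the threshold), and -0.00315 to 0.000239 with 1 library left out. On chromosome 15 it was 0.0151 against the upper side, -0.133 on the log2 ratio scale and -0.000888 with a wider flank, and -0.0141 to -0.00917 with 1 library left out. On chromosome 16 it was 0.00860 against the lower side, -0.00430 with a wider flank, and -0.0115 to -0.00750 with 1 library left out. Differences of the 5hmC excess between olfactory bulb and cortex on chromosome 11 were -0.00266 with only the bin with most members, -0.000375 against the upper side and -0.000102 to 0.00291 with 1 library left out. Between cerebellum and cortex they were -0.0141 with only that bin on chromosome 16 and -0.00782 against the lower side on chromosome 7, and between cerebellum and olfactory bulb on chromosome 7 they were 0.00731 against the upper side and 0.00560 with a wider flank. The depth behind the level of a bin is not in the tables used, so what it limits cannot be given per bin.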
